A study of Mus musculus with 12 samples.

Results

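The cyclin-dependent kinase inhibitors and the core genes of the p53 and Rb pathways were followed in sorted cortical cells. The members were listed by name and are 10 genes: the CIP/KIP inhibitors Cdkn1a (p21), Cdkn1b (p27) and Cdkn1c (p57), the INK4 inhibitors Cdkn2a, Cdkn2b (p15), Cdkn2c (p18) and Cdkn2d (p19), and Trp53, Mdm2 and Rb1. Of these, 9 were among the 30165 genes of the OPC table and 10 among the 17918 genes of the neuron table. The data were 12 bulk RNA-seq libraries in 4 groups of 3: oligodendrocyte precursor cells (OPCs) and neurons, each from ctl and dKO mice. In dKO mice, a tamoxifen-inducible Cre recombinase under the NG2 promoter (NG2-CreERT2) acted on floxed alleles of Cacna1c and Cacna1d, which encode the L-type calcium channels Cav1.2 and Cav1.3. The ctl mice are labelled WT, and whether they carried Cre or floxed alleles is not given in the sources used here. Tamoxifen was given at 100 mg/kg on postnatal days 7 and 8, and the age at sorting is not given for these libraries. Cells of 2 mice were pooled in each library. Sorting was magnetic: cortical OPCs were held back on a column by CD140, NG2 and O4 antibodies, whereas neurons were the flow-through after ACSA-2, CD31, CD11b and O4 labelled cells had been held back. The deletion is driven in NG2-expressing cells, which include OPCs and pericytes, and the neuron libraries held markers of both, as given below. In neurons the comparison therefore asks what differed in a flow-through fraction from the same kind of mice, which was not free of cells of the targeted types.

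Progress from G1 into S phase needs cyclin-dependent kinases, which phosphorylate the retinoblastoma protein Rb1 and release E2F transcription factors. INK4 proteins bind CDK4 and CDK6, CIP/KIP proteins bind cyclin-CDK complexes more broadly, and p53, which MDM2 marks for degradation, switches on Cdkn1a after DNA damage. Cdkn1a and the Cdkn2a product p16Ink4a are widely read as marks of senescence, a lasting cell cycle arrest, and Cdkn1b takes part in the cell cycle exit of OPCs before they differentiate.

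The sequences just before the transcription starts that matter most here are shown to place the values that follow, read from the RefSeq promoter table of GRCm38.p6, which held windows for 8 of the 10 genes (all but Cdkn1c and Rb1). Each run is the 250 bases 5′ of a start, on the strand of the gene. Both starts of Cdkn1a are shown because the neuron table separates their transcripts, Cdkn2b and Mdm2 because they had the smallest p of the members in neurons and in OPCs, and the p16Ink4a start of Cdkn2a because of its place in senescence. The windows are chr17:29090729-29090978 and chr17:29093519-29093768 on the plus strand for Cdkn1a. On the minus strand they are chr4:89311033-89311282 for Cdkn2b, chr4:89282193-89282442 for Cdkn2a and chr10:117710759-117711008 for Mdm2. Capitals mark matches, on either strand, to the p53 response element, to the GC box GGGCGG or to the E2F words TTTCGCG and TTTGGCG.
Cdkn1a, upstream start: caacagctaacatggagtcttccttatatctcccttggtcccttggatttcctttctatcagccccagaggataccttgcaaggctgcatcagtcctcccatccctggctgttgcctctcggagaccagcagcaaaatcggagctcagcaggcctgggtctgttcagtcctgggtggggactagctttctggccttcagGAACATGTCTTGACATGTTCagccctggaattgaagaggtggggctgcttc
Cdkn1a, downstream start: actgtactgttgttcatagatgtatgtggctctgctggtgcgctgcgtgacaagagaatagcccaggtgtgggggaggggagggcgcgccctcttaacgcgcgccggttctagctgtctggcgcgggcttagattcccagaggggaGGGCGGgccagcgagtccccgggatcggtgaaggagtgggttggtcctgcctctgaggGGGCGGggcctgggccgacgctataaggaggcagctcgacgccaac
Cdkn2b: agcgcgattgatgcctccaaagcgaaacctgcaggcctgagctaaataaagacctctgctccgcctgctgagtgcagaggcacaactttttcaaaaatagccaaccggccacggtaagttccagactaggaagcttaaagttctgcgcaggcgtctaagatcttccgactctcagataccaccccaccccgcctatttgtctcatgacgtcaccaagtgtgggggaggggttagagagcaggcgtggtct
Cdkn2a, p16Ink4a start: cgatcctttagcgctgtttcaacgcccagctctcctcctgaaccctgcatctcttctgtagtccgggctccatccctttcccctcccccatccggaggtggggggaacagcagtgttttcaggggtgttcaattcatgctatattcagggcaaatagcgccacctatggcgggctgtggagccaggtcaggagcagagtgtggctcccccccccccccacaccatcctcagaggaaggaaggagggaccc
Mdm2: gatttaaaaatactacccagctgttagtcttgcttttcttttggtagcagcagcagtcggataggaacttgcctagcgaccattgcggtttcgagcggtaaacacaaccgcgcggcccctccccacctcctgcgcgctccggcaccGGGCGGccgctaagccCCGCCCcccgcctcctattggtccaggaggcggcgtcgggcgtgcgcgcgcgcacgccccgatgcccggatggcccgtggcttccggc

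The upstream window of Cdkn1a held 1 p53 element, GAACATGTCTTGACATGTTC, whose bases lie 51 to 32 bases before the start. The element was searched as a pair of adjoining decamers with both C and G cores fixed and at most 1 departure elsewhere, a tolerance chosen after this window had been read. It was found in 19 of 32851 RefSeq windows of this length (0.0578%), and with no departure in 3 (0.00913%), none of them a member's. The downstream start of Cdkn1a, 2790 bases away, had GC boxes that began 104 and 46 bases before it. Mdm2 held 2 GC boxes and the Cdkn2b and p16Ink4a windows none of the motifs, against GC boxes in 32.7% and E2F words in 1.93% of all windows. Of the 11 windows of members, 1 held an E2F word, TTTCGCG, 200 bases before the downstream start of Cdkn2c. A match is only a match of letters.

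Before the members are described, the libraries need a check. Total counts per library were 14935963 to 19812274 for the OPCs. Neuron libraries held 15052901 to 16344585. In the OPC libraries, 8 OPC markers summed to 1243 to 2221 CPM (counts per 1000000 of the library), 8 oligodendrocyte markers to 49590 to 78120 CPM and 8 choroid plexus and ependyma markers to 10420 to 24510 CPM, so the markers of the labelled cell were present but were not the most abundant. In the neuron libraries, 8 neuron markers summed to 591 to 1393 CPM, 8 endothelial markers to 11590 to 24000 CPM, although the sort was set to remove CD31-positive cells, and 8 choroid plexus and ependyma markers to 4751 to 31570 CPM. Of the last, 5 were higher and 1 was lower in dKO neurons at an unadjusted p under 0.05, with a median log2 fold change of 0.90. Mural markers, which include pericyte genes, summed to 595 to 1477 CPM in the neuron libraries and OPC markers to 76.2 to 163 CPM. None of the 72 markers of the 9 lists was at 0 in any library. In OPCs, 8 of 8 microglia markers and 7 of 8 astrocyte markers were higher in dKO at an unadjusted p under 0.05. OPC dKO replicate 2 stood apart in its sex-linked genes, with 756 CPM of Xist against at most 1.14 CPM in the other OPC libraries, and with 0 CPM of 4 Y-linked genes against 226 to 298 CPM. In neurons the same 4 genes summed to 390 CPM in ctl replicate 1 and 347 CPM in dKO replicate 1, and to at most 3.73 CPM elsewhere. The deleted gene Cacna1c was lower in dKO OPCs (407 ± 33.1 against 300 ± 43.5 normalized counts, SD, n = 3 each; unadjusted p = 0.0179 and adjusted p = 0.349, edgeR), and Cacna1d overlapped (232 ± 36.1 against 159 ± 69.8). These are counts over whole genes, of which the deleted exons are a small part.

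Among the members, Mdm2 in OPCs and Cdkn2b in neurons stood at lower levels in dKO than in ctl, and the other inhibitors, Trp53 and Rb1 overlapped between the genotypes. The genotypes were tested against each other within a cell type with the quasi-likelihood method of edgeR, on counts normalized to a common library size, for genes with a mean of at least 10 normalized counts. In OPCs 9 members were tested, 1 of them had an unadjusted p under 0.05, and 1 had groups that did not overlap. Over all 17364 genes tested in OPCs, 11.5% had an unadjusted p under 0.05 (5.27% of all genes with dKO lower and 6.26% with dKO higher), 16.9% had groups that did not overlap (9.54% with dKO lower), and 0.00576%, a single gene, had an adjusted p under 0.05. In neurons 9 members were tested, again 1 had an unadjusted p under 0.05, and 1 had groups that did not overlap. Over all 14352 genes tested in neurons the shares were 9% at an unadjusted p under 0.05 (4.04% with dKO lower and 4.96% with dKO higher) and 15.3% without overlap (7.82% with dKO lower). At the adjusted threshold the share in neurons was 0%: edgeR called 0 genes there, against 1292 at an unadjusted p under 0.05 and 88 by DESeq2 with adjustment. No member had an adjusted p under 0.05 in either cell type with edgeR, and the share of members past the unadjusted threshold was near that of all genes. The counts come from mixtures of cells, in which fewer cells of a type and less RNA per cell cannot be told apart.

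**Figure D1:**
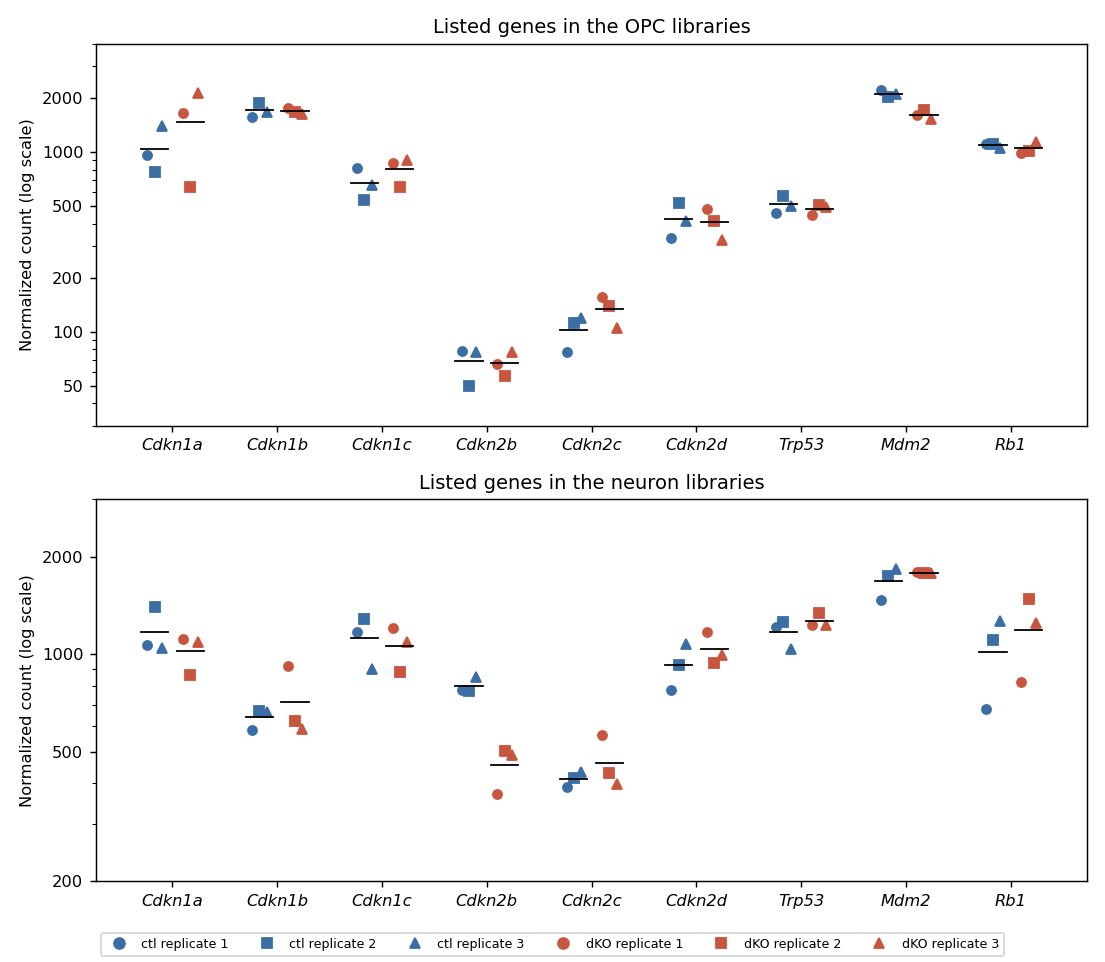
Normalized counts (log axis) of the 9 members tested in each cell type, OPC libraries above and neuron libraries below. Each symbol is 1 library, blue for ctl and red for dKO, and black bars are group means. The groups are apart for Mdm2 in OPCs and for Cdkn2b in neurons, and the dKO points of Cdkn1a in OPCs span 640 to 2140.

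The p53 branch was led by Mdm2 in OPCs. MDM2 is the ubiquitin ligase that holds p53 low, and its gene is itself switched on by p53. Mdm2 had 2206, 2033 and 2099 normalized counts in the 3 ctl libraries of OPCs and 1606, 1721 and 1528 in the 3 dKO libraries. Every dKO library was below every ctl library. The means were 2112 ± 87.3 and 1618 ± 97.4 (SD, n = 3 each), a log2 fold change of -0.38 (SE 0.10) or a change of -23.4%, with an unadjusted p of 0.00462 and an adjusted p of 0.292 over all genes (edgeR). DESeq2 gave an adjusted p of 0.0391, and over 10 alternatives the adjusted p ran from 0.0391 to 0.776 while the log2 fold change stayed between -0.43 and -0.35. Of the 8 oligodendrocyte markers, 2 were lower in the same dKO libraries (median log2 fold change -0.42), and their sums overlapped between the genotypes. Per 1000 CPM of these markers Mdm2 had 1.99, 1.57 and 1.75 CPM in ctl and 1.12, 1.44 and 1.87 in dKO, and per 1000 CPM of OPC markers 87.5, 51.5 and 69.5 against 45.1, 45.2 and 74.5. On both of these scales the groups overlapped. Of the 9 marker lists they overlapped also per endothelial, mural and choroid plexus marker, whereas per microglia, astrocyte, neuron and neuroblast marker every dKO library was below every ctl library. Per 1000 CPM of neuron markers, for example, Mdm2 had 579 to 795 CPM in ctl and 382 to 475 in dKO. The part of the cell mixture in the Mdm2 values was not otherwise tested. In neurons Mdm2 had 1466, 1739 and 1828 normalized counts in ctl and 1797, 1780 and 1775 in dKO. The dKO values lay inside the ctl range there, and the log2 fold change was 0.09 (SE 0.13). The difference between the cell types was not tested, because their tables were counted in different ways.

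Trp53, which encodes p53 itself, had 460, 574 and 501 normalized counts in ctl OPCs and 447, 510 and 493 in dKO OPCs. In neurons Trp53 had 1215, 1254 and 1037 in ctl and 1228, 1341 and 1235 in dKO. The genotypes overlapped in both cell types, with log2 fold changes of -0.08 (SE 0.13) in OPCs and 0.12 (SE 0.13) in neurons. The neuron table separates transcripts, and NM_011640 held 80.0% ± 0.25 of the estimated Trp53 counts in ctl and 78.4% ± 4.12 in dKO (SD, n = 3). NM_001127233, which starts at the same base in the annotation, held 13.04% ± 2.45 and 16.4% ± 1.19. The two-sided exact permutation p was 0.5 for NM_011640 and 0.2 for NM_001127233, where 0.1 is the smallest that 3 libraries against 3 allow. Fitted as transcripts with edgeR, they had log2 fold changes of 0.10 and 0.45 (unadjusted p = 0.483 and 0.174). A difference between the genotypes was not shown for either.

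Rb1, the pocket protein at the end of this pathway, had narrow groups in OPCs, with 1108, 1117 and 1054 normalized counts in ctl and 987, 1019 and 1143 in dKO. In neurons Rb1 spread more widely, with 679, 1105 and 1267 in ctl and 821, 1482 and 1250 in dKO. The genotypes overlapped in both, with log2 fold changes of -0.06 (SE 0.10) in OPCs and 0.22 (SE 0.28) in neurons. In each neuron group the lowest Rb1 value was in replicate 1, the libraries that held the Y-linked counts.

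Cdkn1a spread more widely over the OPC libraries than any other member tested there. Its product p21 halts cyclin-CDK complexes in response to p53. Cdkn1a had 965, 772 and 1403 normalized counts in ctl OPCs and 1662, 640 and 2140 in dKO OPCs. The dKO group held both the lowest and the highest of the 6 values. Its log2 fold change was 0.50 (SE 0.39), with an unadjusted p of 0.24 and an adjusted p of 0.651 (edgeR). The low dKO value belongs to replicate 2, the library that stood apart in its sex-linked genes, and without it the log2 fold change was 0.86 (SE 0.23), with an unadjusted p of 0.00538 and an adjusted p of 0.146. Over the 10 alternatives the adjusted p ran from 0.146 to 0.942, and without dKO replicate 3 the log2 fold change was 0.13. So 1 library decides this value in each direction.

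The order of the 6 OPC libraries by Cdkn1a was the same as their order by the summed endothelial markers and by the summed mural markers, and differed from the order by each of the other 7 marker lists. The endothelial sums were 1782, 1212 and 1821 CPM in ctl and 2079, 989 and 2939 CPM in dKO. Per 1000 CPM of endothelial markers, Cdkn1a stood at 31.2, 35.8 and 44.7 CPM in ctl and at 43.7, 36.0 and 44.1 CPM in dKO. These ratios overlapped between the genotypes. The microglia sums were 233, 217 and 265 CPM in ctl and 649, 274 and 955 CPM in dKO, with dKO replicates 1 and 3 highest, as for Cdkn1a. Per 1000 CPM of microglia markers, Cdkn1a stood at 239, 200 and 307 CPM in ctl and at 140, 130 and 136 CPM in dKO, lower in every dKO library. On the scales of the remaining marker lists the genotypes overlapped. No marker of these lists was at 0. The part of other cells in the Cdkn1a values was not tested.

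In neurons Cdkn1a had 1065, 1398 and 1047 normalized counts in ctl and 1113, 862 and 1088 in dKO. The groups overlapped, with a log2 fold change of -0.20 (SE 0.17). Of its estimated counts, NM_007669, from the downstream start printed above, held 98.1% ± 0.45 in ctl and 98.3% ± 1.15 in dKO. NM_001111099, whose start follows the p53 element, held 1.94% ± 0.45 and 1.66% ± 1.15 (SD, n = 3; two-sided exact permutation p = 0.8). Nearly all Cdkn1a counts were thus assigned to the downstream start in both genotypes.

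**Figure D2:**
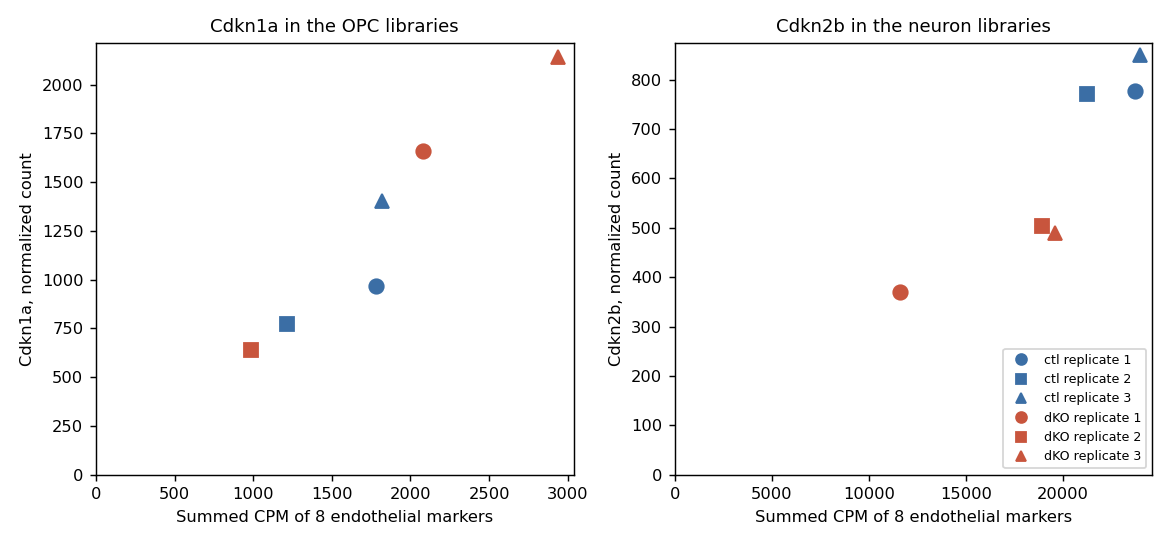
Normalized count of Cdkn1a in the 6 OPC libraries (left) and of Cdkn2b in the 6 neuron libraries (right) against the summed CPM of 8 endothelial markers in the same library. Blue symbols are ctl and red are dKO libraries, with 1 shape per replicate number. On the left the order of the libraries is the same on both axes, and on the right the 3 dKO libraries are below the ctl libraries on both.

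Cdkn1b and Cdkn1c, the other CIP/KIP genes, did not separate the genotypes. Cdkn1b, whose product p27 builds up as OPCs leave the cell cycle, had 1578, 1869 and 1676 normalized counts in ctl OPCs and 1767, 1679 and 1623 in those of dKO mice, for a log2 fold change of -0.01 (SE 0.11). In neurons Cdkn1b had 583, 669 and 664 in ctl and 918, 625 and 591 in dKO, a log2 fold change of 0.15 (SE 0.19). Only dKO replicate 1 of the neurons lay above the ctl range, and without it the log2 fold change was -0.07.

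Cdkn1c is an imprinted gene whose product p57 restrains precursor division. Cdkn1c had 817, 541 and 657 normalized counts in ctl OPCs and 870, 643 and 902 in those of dKO mice, for a log2 fold change of 0.26 (SE 0.18). The groups overlapped, and without dKO replicate 2 the log2 fold change was 0.40 (SE 0.17), with an unadjusted p of 0.0479 and an adjusted p of 0.37 (edgeR; 0.37 to 0.936 over the 10 alternatives). In neurons Cdkn1c had 1175, 1282 and 902 in ctl and 1206, 880 and 1088 in dKO, a log2 fold change of -0.08 (SE 0.18). Its estimated counts were spread over 12 transcripts in the neuron table. NM_009876 held the most, 33.6% ± 1.39 in ctl and 33.9% ± 5.09 in dKO.

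Cdkn2b was the INK4 gene with the clearest difference, and only its neuron values separated the genotypes. Its product p15 blocks CDK4 and CDK6 and is switched on by TGF-beta. Cdkn2b had 778, 771 and 851 normalized counts in ctl neurons and 370, 505 and 489 in dKO neurons. All 3 dKO libraries were below all 3 ctl libraries. The means were 800 ± 44.1 and 455 ± 73.5 (SD, n = 3 each), a log2 fold change of -0.81 (SE 0.16) or a change of -43.2%, with an unadjusted p of 0.000864 and an adjusted p of 0.521 (edgeR). DESeq2 gave an adjusted p of 0.0115, the range over the 10 alternatives was 0.0115 to 0.871, and the log2 fold change stayed between -0.89 and -0.69. In OPCs Cdkn2b had 78.7, 50.02 and 77.3 normalized counts in ctl and 66.5, 57.2 and 77.0 in dKO. All dKO values lay inside the ctl range there, with a log2 fold change of -0.05 (SE 0.27).

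The endothelial markers moved with Cdkn2b in the neuron libraries. Their sums were 23730, 21250 and 24000 CPM in ctl and 11590, 18930 and 19590 CPM in dKO, with dKO below ctl throughout, and 3 of the 8 markers were lower at an unadjusted p under 0.05. Per 1000 CPM of endothelial markers, Cdkn2b stood at 2.12, 2.30 and 2.16 CPM in ctl and at 2.10, 1.72 and 1.62 CPM in dKO. These ratios too were lower in every dKO library than in any ctl library, though dKO replicate 1 (2.10) came close to ctl replicate 1 (2.12). The same held per mural, neuron, neuroblast and choroid plexus marker. Per OPC, oligodendrocyte, microglia and astrocyte marker the groups overlapped. Per 1000 CPM of OPC markers, for example, Cdkn2b had 300 to 681 CPM in ctl and 204 to 314 in dKO. Without dKO replicate 1, which had the fewest endothelial counts, the log2 fold change of Cdkn2b was -0.69. The choroid plexus and ependyma sums were 9539, 8815 and 4751 CPM in ctl and 31570, 8818 and 14920 CPM in dKO, and they overlapped between the genotypes. The part of these cells in the Cdkn2b values was not otherwise tested.

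Cdkn2b and Cdkn2a are neighbours on chromosome 4, with 16413 bases between the Cdkn2b start and the upstream start of Cdkn2a in GRCm38.p6. Cdkn2a encodes p16Ink4a, and from an upstream first exon p19Arf, which restrains MDM2. In neurons the p19Arf transcript NM_009877 had an estimated count of 1 in ctl replicate 1 and in dKO replicate 2 and of 0 in the other 4 libraries. In those 4 libraries a count of 0 allows up to 0.185 to 0.199 CPM, by counting error alone. The p19Arf transcript was thus at or under the detection floor in both genotypes. It did not pass the filter and was not tested. The p16Ink4a transcript NM_001040654 in neurons, and Cdkn2a in OPCs, were not analysed here.

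Cdkn2c and Cdkn2d, the remaining INK4 genes, overlapped between genotypes. Cdkn2c, whose product p18 limits precursor proliferation, had 77.0, 112 and 119 normalized counts in ctl OPCs and 156, 140 and 105 in those of dKO mice, for a log2 fold change of 0.38 (SE 0.25). In neurons Cdkn2c had 390, 416 and 435 in ctl and 563, 431 and 398 in dKO, a log2 fold change of 0.17 (SE 0.18). Its transcript NM_001301368, from the upstream start, held 35.7% ± 10.5 of the estimated counts in ctl and 43.0% ± 7.25 in dKO (two-sided exact permutation p = 0.4, where 0.1 is the smallest that 3 against 3 allows). Cdkn2d had 335, 523 and 415 normalized counts in ctl OPCs and 481, 416 and 323 in dKO OPCs. In neurons Cdkn2d had 776, 930 and 1077 in ctl and 1175, 939 and 992 in dKO. The log2 fold changes of Cdkn2d were -0.06 (SE 0.20) in OPCs and 0.16 (SE 0.17) in neurons.

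Across all transcripts of the neuron table, 40070 were tested and 4.6% had an unadjusted p under 0.05. Of the 31 transcripts of members, 24 were tested and 1 had such a p, the single Cdkn2b transcript NM_007670 (log2 fold change -0.81, unadjusted p = 0.00198, edgeR). The transcript shares of Mdm2 leaned without separating: NM_010786 held 60.5%, 72.9% and 77.8% in ctl and 81.9%, 83.7% and 77.5% in dKO, so that dKO replicate 3 lay just inside the ctl range. Its exact permutation p was 0.2. Estimated counts divide shared reads between isoforms, so these shares carry the error of that division.

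**Figure D3:**
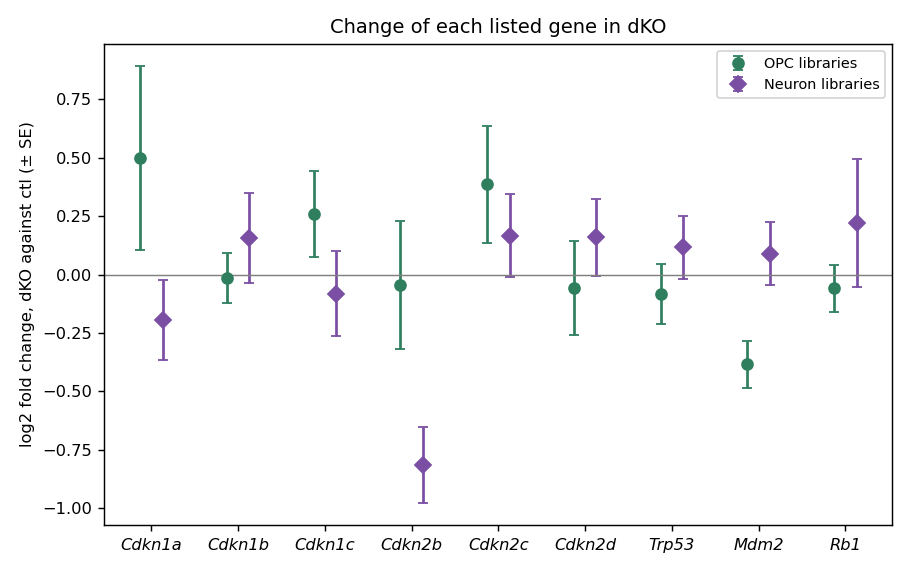
Log2 fold change of each tested member, dKO against ctl, with its standard error from edgeR, for OPC libraries (circles) and neuron libraries (diamonds). Mdm2 in OPCs (-0.38) and Cdkn2b in neurons (-0.81) lie farthest below 0 for their errors, and Cdkn1a in OPCs has the widest error (0.39).

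The level of the members was read per length, in TPM (transcripts per 1000000, corrected for transcript length), within each cell type and in ctl libraries. In OPCs the order by mean TPM was Mdm2 (86.8 ± 2.19), Cdkn1b (78.4 ± 7.98), Cdkn1c (68.7 ± 13.1), Cdkn1a (61.5 ± 19.04), Cdkn2d (56.5 ± 13.4), Rb1 (37.97 ± 1.32), Trp53 (26.5 ± 3.38), Cdkn2b (10.3 ± 2.32) and Cdkn2c (8.004 ± 1.85), each as SD with n = 3. The first 5 overlapped in range from one to the next, as did Cdkn2b with Cdkn2c, and the steps from Cdkn2d to Rb1, from Rb1 to Trp53 and from Trp53 to Cdkn2b were clear of the spread. In neurons the order was Cdkn2d (93.0 ± 9.45), Trp53 (78.2 ± 12.3), Cdkn1a (73.0 ± 14.5), Cdkn2b (72.0 ± 1.66), Cdkn1c (69.6 ± 15.7), Mdm2 (60.8 ± 4.30), Cdkn2c (40.4 ± 3.40), Cdkn1b (30.7 ± 1.91) and Rb1 (23.8 ± 6.01), with the p19Arf transcript of Cdkn2a last and listed at 0 TPM in 4 of the 6 libraries. The first 6 overlapped in range from one to the next, and the steps from Mdm2 to Cdkn2c, from Cdkn2c to Cdkn1b and from Cdkn1b to Rb1 were clear.

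Set side by side, the ctl mean of Cdkn2b was 6.99 times as high in neurons as in OPCs on the TPM scale, that of Cdkn2c 5.05 times and that of Trp53 2.95 times. The ctl mean of Cdkn1b was 2.56 times as high in OPCs as in neurons, that of Rb1 1.595 times and that of Mdm2 1.43 times. These ratios cross tables that were normalized separately and have no test. They also compare mixtures of cells. Endothelial markers summed to 21250 to 24000 CPM in ctl neuron libraries, where neuron markers summed to 591 to 860 CPM, and to 1212 to 1821 CPM in ctl OPC libraries. The part of the mixtures in these ratios was not tested. Summed by family, the 3 CIP/KIP genes had 209, 189 and 228 TPM in ctl OPCs and 243, 162 and 305 in dKO OPCs, and the INK4 genes measured 61.2, 86.8 and 76.2 against 78.0, 67.0 and 65.1. In neurons the CIP/KIP sums were 176, 203 and 142 TPM in ctl and 151, 149 and 176 in dKO, and the INK4 sums 199, 209 and 208 against 167, 193 and 196. The INK4 sum in neurons was lower in every dKO library, and the other sums overlapped. That sum holds Cdkn2b, which set its direction: without Cdkn2b the neuron sums were 125, 138 and 137 TPM in ctl and 140, 144 and 148 in dKO, higher in every dKO library, with no test. Cdkn2b was left out as the member that was lower in these libraries, so this order is a description only. Cdkn2c and Cdkn2d each overlapped between the genotypes.

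**Figure D4:**
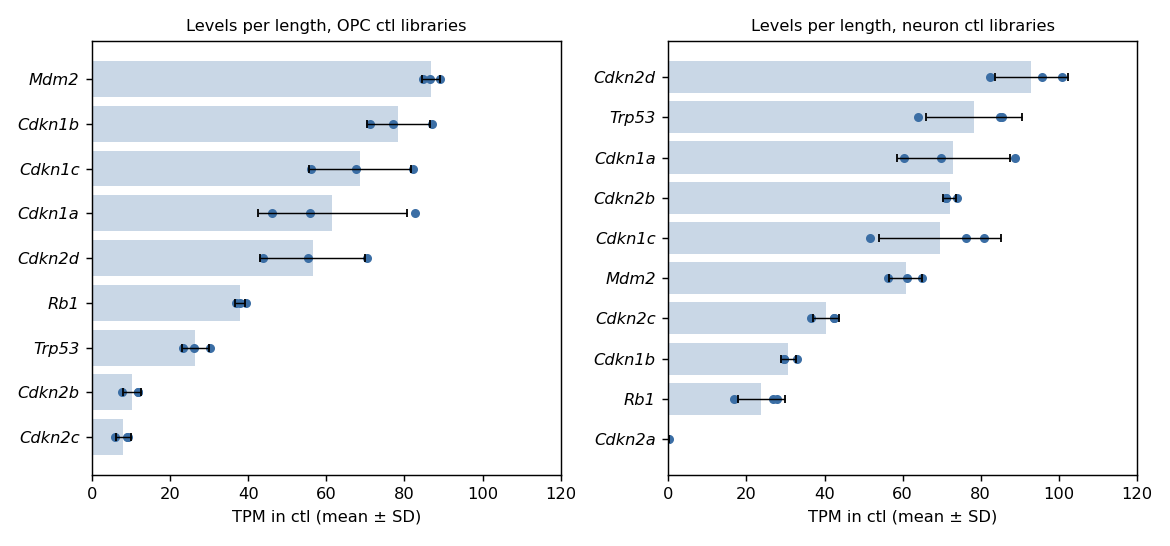
Level of each member in ctl libraries in TPM, OPC (left) and neuron (right). Bars are means, whiskers the SD and points the 3 libraries. Mdm2 heads the OPC order at 86.8 and Cdkn2d the neuron order at 93.0, and the 1 Cdkn2a transcript read in neurons, p19Arf, is near 0.

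Lists of genes that act with the members were read in the same fits. The paper itself names Il1b in OPCs and Aurka in neurons, both in these lists, as higher in dKO. The lists were chosen by textbook role but with earlier results of these data known, so their counts are descriptions only. Their counts stand against the shares over all genes tested at an unadjusted p under 0.05: for OPCs 6.26% with dKO higher and 5.27% with dKO lower, for neurons 4.96% and 4.04%. Of 34 p53 target genes in OPCs, 1 was higher and 2 were lower in dKO at an unadjusted p under 0.05, with a median log2 fold change of 0.07 against 0.01 for all genes tested. The lower ones were Mdm2 itself and Plk3, a stress kinase (1580 ± 53.8 to 1258 ± 36.5 normalized counts, log2 fold change -0.33), and the higher one was Ccng1, cyclin G1 (1548 ± 129 to 1918 ± 112, 0.31). The count of higher targets was 7 without dKO replicate 2 and 3 without ctl replicate 1, and 0 without ctl replicate 2, dKO replicate 1 or dKO replicate 3. In neurons 0 of 34 targets were higher and 2 were lower, Polk, a translesion polymerase (5269 ± 772 to 3417 ± 973, -0.62), and Plk2, another stress kinase (6665 ± 922 to 4750 ± 1019, -0.49). The target with the third smallest p in neurons, Gtse1, had a log2 fold change of 0.59 and an unadjusted p of 0.0523. With 1 neuron library left out, 0 to 2 were higher (2 without dKO replicate 1 or ctl replicate 3) and 0 to 3 were lower (0 without ctl replicate 3). In these neuron libraries the endothelial sums were below ctl in every dKO library, as the Polk and Plk2 counts were, and their part in those counts was not tested. The 3 calls among 34 targets in OPCs and the 2 in neurons were near the shares over all genes, 11.5% and 9% in either direction.

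Of 20 p53 regulators in OPCs, 0 were higher and 1 was lower, Mdm4, the partner of MDM2 (3963 ± 284 to 3130 ± 392 normalized counts, log2 fold change -0.34, unadjusted p = 0.0295, edgeR). The DNA damage kinases Prkdc (-0.26) and Atr (-0.23) followed without passing. In neurons 2 of 19 were higher and 0 lower, the deubiquitinase Usp7, which acts on p53 and MDM2 (800 ± 125 to 1170 ± 113, 0.55), and the p53 kinase Hipk2 (957 ± 147 to 1278 ± 162, 0.42). The deacetylase Sirt1 had a log2 fold change of 0.56 and did not pass. The medians were -0.06 in OPCs and 0.12 in neurons. The count of lower regulators in OPCs was 0 without ctl replicate 1, ctl replicate 2 or dKO replicate 1 and 3 without dKO replicate 3, with 1 higher without ctl replicate 2, and that of higher ones in neurons was 1 without ctl replicate 1, dKO replicate 2 or dKO replicate 3.

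Among the cyclins and kinases that the inhibitors act on, every call was higher in dKO. In OPCs 3 of 15 cyclin and CDK genes were higher and 0 lower: Ccnd3 (1095 ± 141 to 1464 ± 94.4 normalized counts, log2 fold change 0.42), Ccnd1 (450 ± 88.3 to 653 ± 53.9, 0.54) and the phosphatase gene Cdc25b (74.9 ± 6.81 to 112 ± 28.8, 0.58). In neurons 6 of 18 were higher, against 4.96% of all genes tested, and 0 lower, with a median of 0.34, among them cyclin A2, Ccna2 (1115 ± 196 to 1611 ± 158, 0.53), Cdc25c (105 ± 41.6 to 201 ± 14.9, 0.93) and cyclin D2, Ccnd2 (12584 ± 1974 to 18315 ± 2232, 0.54). With 1 library left out the OPC count was 2 to 3. The neuron count fell to 1 without ctl replicate 1, to 2 without ctl replicate 2 and to 3 without dKO replicate 2, was 4 without dKO replicate 1, and was 7, with 1 gene lower, without ctl replicate 3. In the same neuron libraries the 8 neuroblast and neural progenitor markers summed to 1039 to 1649 CPM in ctl and 1630 to 2167 CPM in dKO, with 4 of 8 higher at an unadjusted p under 0.05, a median of 0.50 and none at 0. Their part in the neuron calls of the cyclins and of the lists that follow was not tested, nor was that of the microglia and astrocyte markers in the OPC calls.

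Of 18 Rb and E2F family genes, 0 passed in OPCs (median 0.10), where Lin37 (-0.36), Rbbp7 (0.17) and Rbl1 (0.35) had the smallest p. In neurons 1 was higher, E2f1 (146 ± 28.0 to 220 ± 43.3 normalized counts, log2 fold change 0.59), and E2f3 (0.57) and Tfdp1 (0.26) followed without passing (median 0.07). The E2f1 call was lost with RLE size factors, and without ctl replicate 1, ctl replicate 2 or dKO replicate 2 of the neurons. In OPCs 1 gene was higher without ctl replicate 2 or dKO replicate 1. Of the replication and mitosis genes, 2 of 27 were higher in OPCs (median 0.16): Top2a, topoisomerase II alpha (33.9 ± 10.8 to 68.8 ± 18.2, 1.03), and Mcm5, of the replicative helicase (70.4 ± 6.42 to 101 ± 9.63, 0.52). Bub1b (0.78) did not pass. The OPC count was 0 without ctl replicate 1 (median 0.06) or dKO replicate 3 (median 0.09), and 1 without ctl replicate 3 or dKO replicate 2. In neurons 10 of 28 were higher, against 4.96% of all genes tested, and 0 lower, 27 had a log2 fold change above 0, and the median was 0.44. The mitotic kinase genes Aurka (282 ± 67.0 to 527 ± 47.1, 0.90) and Plk1 (269 ± 43.7 to 446 ± 34.7, 0.73) and the passenger protein gene Birc5 (392 ± 105 to 610 ± 12.7, 0.64) had the smallest p. Which libraries entered moved this count widely: 4 were higher without ctl replicate 1 or ctl replicate 2, 5 without dKO replicate 2, 6 without dKO replicate 3, 9 without dKO replicate 1 and 21 without ctl replicate 3, with medians of 0.32 to 0.68 and 0 lower throughout. The neuroblast and neural progenitor markers moved with them, as with the cyclins. Of 7 choroid plexus and ependyma markers tested, 5 were higher and 1 was lower, and their sums overlapped between the genotypes. The part of either in these values was not tested.

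The genes that degrade the inhibitors gave 0 calls of 12 in OPCs (median -0.05), where Cdc27 (-0.16), Fbxw7 (0.22) and Btrc (-0.15) had the smallest p. In neurons 2 of 12 were higher: Cks1b, which helps the SCF ligase take up p27 (340 ± 94.3 to 542 ± 60.1 normalized counts, log2 fold change 0.67), and Dtl, which directs p21 to a CUL4 ligase (289 ± 95.7 to 469 ± 87.0, 0.70). Fzr1 (0.19) came next. Without ctl replicate 2 the neuron count was 0, without ctl replicate 1 or dKO replicate 3 it was 1, and with the other libraries left out in turn it was 2 or 3. The Polycomb repressors silence the Cdkn2a and Cdkn2b locus in dividing cells. In OPCs 1 of 18 was lower, Phc1 (2439 ± 278 to 1959 ± 115, -0.32), Jarid2 (-0.24) and Cbx7 (-0.20) came next, and the groups of 6 did not overlap, all with dKO lower, against 9.54% of all genes tested (median -0.11). The OPC call was lost without ctl replicate 2 or dKO replicate 3, and with no filter on low counts, and 2 were lower without dKO replicate 2. In neurons 2 of 18 were higher, Cbx2 (178 ± 25.0 to 297 ± 44.1, 0.73) and the methyltransferase gene Ezh2 (628 ± 118 to 892 ± 160, 0.51), and 1 was lower, Cbx7 (682 ± 36.6 to 515 ± 98.1, -0.40), with a median of 0.19. Among the 6 neuron fits with a library left out, 1 gene was lower without dKO replicate 2 and 0 in the others, and the higher calls numbered 1 to 3.

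The senescence-linked list, which holds secreted factors and chromatin genes, had the most calls in OPCs: 11 of 26 tested were higher in dKO, against 6.26% of all genes tested, 0 were lower and the median log2 fold change was 0.51. The count was 4 of 26 without dKO replicate 3 (median 0.27), 8 without ctl replicate 2 (median 0.35) and 16 without dKO replicate 2 (median 0.65), and 11 or 12 without the others, with 1 gene lower without dKO replicate 1. The smallest p belonged to the cytokine genes Il1b (34.0 ± 13.6 to 132 ± 51.4 normalized counts, log2 fold change 1.93) and Il1a (96.0 ± 5.52 to 313 ± 173, 1.70) and to Plaur, the urokinase receptor gene (50.8 ± 9.32 to 148 ± 80.0, 1.53). The microglia markers, with sums of 217 to 265 CPM in ctl and 274 to 955 CPM in dKO, were higher in the same libraries. Their part was not tested. In neurons 1 of 23 was higher, Timp2 (1727 ± 386 to 2406 ± 327, 0.48), and 2 were lower, Igfbp7 (9567 ± 1006 to 6836 ± 1062, -0.49) and Cxcl1 (87.4 ± 31.2 to 45.6 ± 9.59, -0.94), with a median of -0.21. With 1 library left out, 0 to 3 were higher and 1 to 4 lower. The endothelial markers of these neuron libraries summed to 21250 to 24000 CPM in ctl and 11590 to 19590 CPM in dKO, below ctl in every dKO library, with 3 of 8 lower, and their part was not tested. No gene of any of the 8 lists had an adjusted p under 0.05 in either cell type with edgeR.

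**Figure D5:**
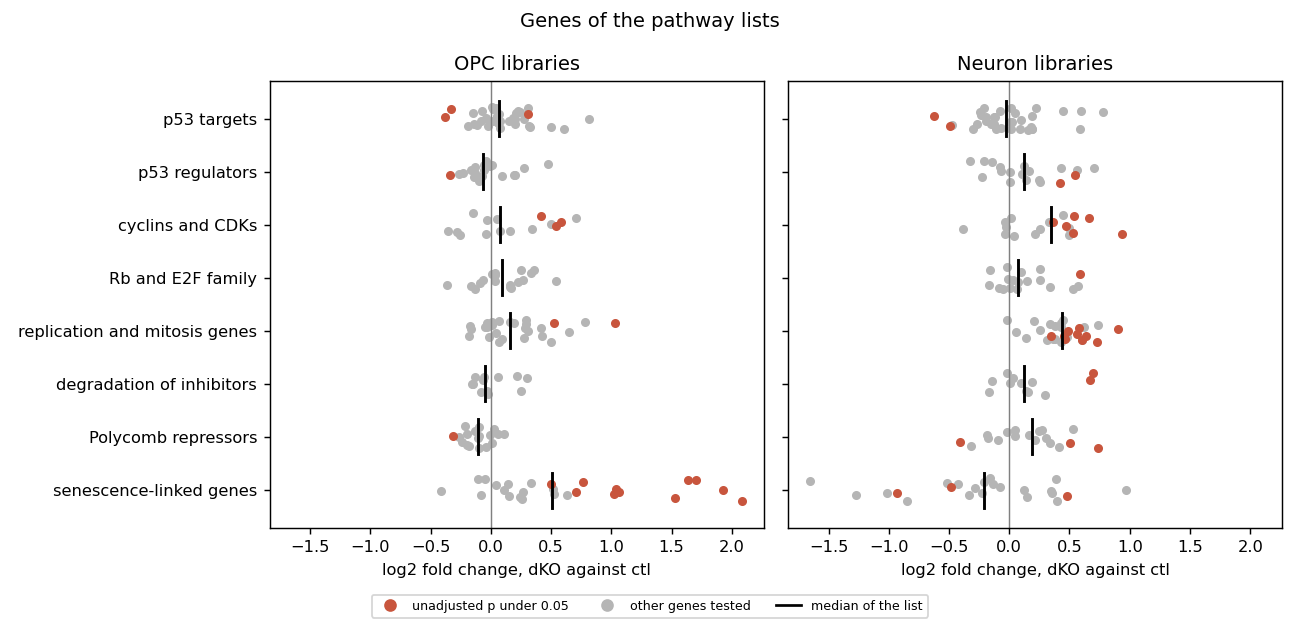
Log2 fold changes, dKO against ctl, of the genes in each of 8 lists in OPC (left) and neuron (right) libraries. Red points have an unadjusted p under 0.05, grey points do not, and black bars are list medians. The senescence-linked genes in OPCs have a median of 0.51, and the replication and mitosis genes in neurons one of 0.44.

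Among the 176 genes of these lists and the members, those whose centred log2 CPM followed Cdkn1a most closely across the 6 OPC libraries were Fas, Igfbp3 and Tgfb1. Their mean absolute differences from it were 0.17, 0.21 and 0.22, against a range of 1.74 for Cdkn1a itself. Closest to Cdkn1a in the 6 neuron libraries were Phc1, Cdkn1c and Bax, at 0.10, 0.11 and 0.12. Closest to Cdkn2b in neurons were Polk, Plk2 and Ets2, at 0.15, 0.16 and 0.17, against a range of 1.2, and in OPCs Polk, E2f1 and Chek2, at 0.10, 0.10 and 0.11, against a range of 0.64. Polk came first for Cdkn2b in each cell type. The points of each comparison share their libraries, and these distances are descriptions without a test.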

How the data were processed

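For OPCs the authors deposited read counts per Ensembl gene for 30165 genes, made per their methods with HISAT2 and featureCounts on GRCm38. The submitters' processing notes name mm39, and the table's gene spans equal those of RefSeq GRCm38.p6 for 57 of 23508 shared symbols, so no coordinate was taken from it. The FPKM values the authors deposited for OPCs were rescaled to TPM. For neurons the authors deposited estimated counts and TPM values for 66298 RefSeq transcripts, and the program is not given in the sources used here. These estimated counts were summed per gene and rounded, and 17794 of 17918 gene identifiers matched a symbol (unmatched genes held 0.0441% of counts). The authors' normalized counts (a signal scaled by size factors) and the log2 fold changes and p-values the authors deposited for their own comparisons were not used.

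Within a cell type, dKO and ctl were compared with edgeR (version 4.0.16, run in R 4.3.3), using its quasi-likelihood test, TMM factors, a mean normalized count of at least 10 and Benjamini-Hochberg adjustment at 0.05. A normalized count is the CPM times the mean effective library size. The standard error of a log2 fold change is its size over the root of the F statistic. The fits were checked on simulated counts in which 200 genes were shifted by 2 log2 units. This shift is larger than that of any member gene tested, so recovery at the members' sizes was not checked. In OPCs edgeR recovered 170 of the 189 shifted genes that were tested and called 7 others, in neurons 170 of 198 and 9 others, and among neuron transcripts 11 of 172. Depth is the total count per library. Replicates differed by more than sampling noise (chi-square per gene of at least 15.9). Nothing in the labels ties a replicate number to separate litters or days, and p-values measure only the spread between these libraries. The limits that a count of 0 allows (3 counts) cover counting error only.

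The members and lists were chosen with earlier results of these data known. All members are named, with the 3 genes of smallest p in each list and cell type and the 3 genes most like Cdkn1a and Cdkn2b. Alternatives were DESeq2 1.42.0, median-of-ratios (RLE) factors, no filter, a replicate block and each library left out. The list counts with each library left out in turn were added after seeing the data, as were the ratios to marker sums. Libraries were prepared without strand marking per the kit in the labels, so genes that overlap on opposite strands cannot be told apart.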

Additional observations from a re-analysis of the deposited data

Results flagged for a closer look

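Cxcl1, a chemokine gene of the senescence-linked list, stood on opposite sides in the cell types. Every dKO library was above every ctl library in OPCs (log2 fold change 0.50, SE 0.18, unadjusted p = 0.0202, adjusted p = 0.357, edgeR), and every dKO library was below every ctl library in neurons (log2 fold change -0.94, SE 0.39, unadjusted p = 0.0428, adjusted p = 0.546). Over all genes tested, every dKO library was above every ctl library for 1285 of 17364 genes in OPCs. In neurons every dKO library was below for 1123 of 14352. Cxcl1 was picked by this same rule from the lists and members. Microglia markers were higher in dKO OPCs and endothelial sums lower in dKO neurons, and their part in the Cxcl1 values was not tested. The difference between the cell types was not tested, since their tables were counted in different ways.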

How the results depend on the processing

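The lower Mdm2 of dKO OPCs and the lower Cdkn2b of dKO neurons kept their direction and an unadjusted p under 0.05 in all 10 alternatives. OPC genes with an adjusted p under 0.05 numbered 1, and 299 with DESeq2, 87 with no filter, 25 with the replicate block and 1 to 201 with 1 library left out (201 without dKO replicate 2). Neuron genes past it numbered 0, and 88 with DESeq2. With 1 library left out, genes at an unadjusted p under 0.05 ranged from 1105 (without ctl replicate 2) to 2299 (without dKO replicate 2) in OPCs and from 781 (without ctl replicate 1) to 1582 (without dKO replicate 2) in neurons. Members past it ranged from 1 to 3 in OPCs, with Cdkn1a and Cdkn1c added without dKO replicate 2, and member transcripts from 1 to 2, with 2 without ctl replicate 2 or dKO replicate 1 of the neurons. The sign of small log2 fold changes turned in 13 cases. In OPCs these were Cdkn1b with no filter (0.0085), without ctl replicate 2 (0.055) or without dKO replicate 3 (0.0022), Cdkn2b without ctl replicate 1 (0.066), ctl replicate 3 (0.038) or dKO replicate 2 (0.056), Cdkn2d without ctl replicate 2 (0.12) or dKO replicate 3 (0.071), and Trp53 without ctl replicate 2 (0.0076). In neurons they were Cdkn1b without dKO replicate 1 (-0.072), Cdkn1c without ctl replicate 2 (0.027) or dKO replicate 2 (0.036) and Rb1 without ctl replicate 1 (-0.00096). With 1 library left out these log2 fold changes ran, in OPCs, from -0.069 to 0.055 for Cdkn1b, from -0.22 to 0.066 for Cdkn2b, from -0.20 to 0.12 for Cdkn2d and from -0.15 to 0.0076 for Trp53, and in neurons from -0.072 to 0.27 for Cdkn1b, from -0.22 to 0.036 for Cdkn1c and from -0.00096 to 0.43 for Rb1. The cause was not tested. Replicate numbers did not pair the libraries: the correlations of same-numbered deviations were -0.11, 0.15 and 0.11 in OPCs and 0.17, -0.08 and -0.08 in neurons, and with the replicate block 1 member passed in each cell type. The block moved 5 list counts by over 1.5 times: in OPCs higher p53 targets from 1 to 2, higher replication and mitosis genes from 2 to 1 and lower Polycomb genes from 1 to 0, and in neurons higher Rb and E2F genes from 1 to 0 and lower senescence-linked genes from 2 to 1. Higher p53 targets in OPCs were also 2 with DESeq2 or no filter, higher senescence-linked genes in neurons 2 with either, against 1, and higher p53 targets in neurons 1 with DESeq2, against 0.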

Other observations

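Several members overlap other genes in the OPC table. Rb1 spans Rcbtb2 and Lpar6, which lie on the opposite strand and had 234 to 456 and 241 to 382 counts per library, against 938 to 1266 for Rb1. Cdkn1a overlaps 1700023B13Rik (27 to 90 counts against 648 to 2000) and Cdkn2b overlaps the antisense gene Gm12610 (2 to 6 counts against 42 to 90). The processed pseudogene Trp53-ps had 0 to 6 counts.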
